A study of Mus musculus with 18 samples.

Results

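The set described here holds 43 mouse genes of the endoplasmic reticulum (ER): the sensors and transcription factors of the unfolded protein response, the chaperones and folding enzymes of the ER lumen, and the machinery that brings proteins into the ER, exports them or sends misfolded ones to degradation. The members were taken by symbol from the 29112 genes of the deposited read-count table, and 43 of the 43 symbols were found there. Of these, 42 passed the filter on low counts and were tested among 15074 genes. The exception was Derl3, a derlin of secretory tissues, which had 3 reads in all and none in 15 of the 18 libraries.

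Proteins that enter the secretory pathway fold in the ER with the help of chaperones, and unfolded proteins that build up there set off the unfolded protein response. The sensor IRE1 (encoded by Ern1) splices the mRNA of the transcription factor Xbp1, the membrane-bound factor ATF6 is cleaved into an active form, and the kinase PERK raises ATF4 and then CHOP (Ddit3) while it lowers translation. XBP1 and ATF6 are known to raise ER chaperones and degradation factors through promoter sequences called ER stress response elements, and in heart muscle cells ATF6 is best known for inducing these chaperones under stress.

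The libraries came from HL-1, a mouse line of atrial heart muscle origin, in 6 groups of 3. Untransfected cells were kept either with vehicle or in high glucose. The other 4 groups were all in high glucose, and were transfected with miR-200a-3p mimics, with a negative control for the mimics, with a miR-200a-3p inhibitor, or with a negative control for the inhibitor. RNA was taken 48 hours after transfection. The series set out to find what miR-200a-3p does to the transcriptome of these cells. No gene was deleted in any group. The glucose levels are not given in the sources used here, and neither is it said whether the untransfected cells received transfection reagent or whether replicates were grown as separate cultures. The p-values therefore measure the spread between these libraries, which may be technical. The microRNA is 1 of the miR-200 family, and its mature sequence is shown with its seed, bases 2 to 8, in capitals because the search for target sites rests on it (RefSeq, chr4:156054911-156054932, minus strand, GRCm38.p6).
miR-200a-3p: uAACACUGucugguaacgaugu

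Library depth was 33655916 to 37928790 reads, so that 3 reads, the least taken as detection, stood for 0.0791 to 0.0891 CPM (counts scaled to library size). This limit covers counting error only. Replicates of a group differed by more than counting noise in every pair (chi-square per degree of freedom 4.37 to 26.1) and correlated at 0.981 to 0.996 across genes. Markers that define atrial muscle were nearly absent: Nppa had no read in 16 libraries and Pln in 17, Myh6 did not exceed 0.204 CPM, while Tnnt2 lay at 14.2 to 79.3 CPM and Gata4 at 8.31 to 13.1 CPM. Fibroblast markers summed to 10571 to 12080 CPM in untransfected cells, 2412 to 2586 CPM in the inhibitor and inhibitor control libraries, and 1050 to 1093 CPM in the mimic and mimic control libraries. Collagen transcripts made up most of these sums, as Col3a1 reached 9765 CPM, Col1a2 1555 CPM and Col1a1 672 CPM. The other listed fibroblast markers were scarcer. Pdgfra reached 81.4 CPM, Dcn 52.8 CPM, Postn 2.00 CPM and Thy1 1.28 CPM, and Lum had no read in 13 libraries. Of 8 listed markers of plasma and acinar cells, which carry much ER, 6 were in the count table, without the acinar genes Cpa1 and Prss1. These 6 summed to 5.20 to 6.98 CPM in untransfected cells, 8.02 to 8.49 CPM in the mimic control and 11.6 to 14.2 CPM with the mimic. In the inhibitor pair they summed to 23.2 to 26.0 CPM. The 3 pairs lay in the same order as for the ER genes. Within the mimic pair the order was the reverse, as the share of the ER genes was lower with the mimic than in its control. Cela1 made up most of this sum (4.95 to 25.6 CPM), Prdm1 lay at 0.0264 to 1.23 CPM and Irf4 reached 0.172 CPM, while Jchain and Cd79a had no read in 15 libraries and Mzb1 in 16. Mimic replicate 2 stood apart by its macrophage transcripts (Lyz2 was at 870.1 CPM there and at 12.7 to 18.6 CPM elsewhere). Changes in the calls of members with the mimic are therefore also given without it. Fold changes with the mimic, and counts over all genes and other lists, are given only with it. In bulk RNA, fewer cells of a type and less RNA per cell cannot be told apart.

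The ER genes took up a different part of the library in the 3 pairs of groups. Reads of the 43 genes made up 1.33% to 1.36% of all reads with vehicle and 1.38% to 1.41% in high glucose. They made up 2.61% to 2.71% in the mimic control and 2.48% to 2.52% with the mimic. In the inhibitor control they reached 6.22% to 6.81%, and with the inhibitor 6.33% to 6.73%. The libraries of the untransfected, mimic and inhibitor pairs thus did not overlap, and the inhibitor pair stood highest. Hsp90b1, the ER member of the Hsp90 family, alone went from 0.273% to 0.357% of reads in untransfected cells to 2.80% to 3.20% in the inhibitor pair, where it was the most abundant of the set per length with 7087 FPKM (fragments scaled to gene length and library depth, deposited per library and averaged here over 3 libraries) in the inhibitor control. Per length it was followed in that group by Calr at 2287 FPKM and Hspa5 at 1959.7 FPKM, while the least abundant tested member, Ero1b, lay at 1.03 FPKM.

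**Figure D1:**
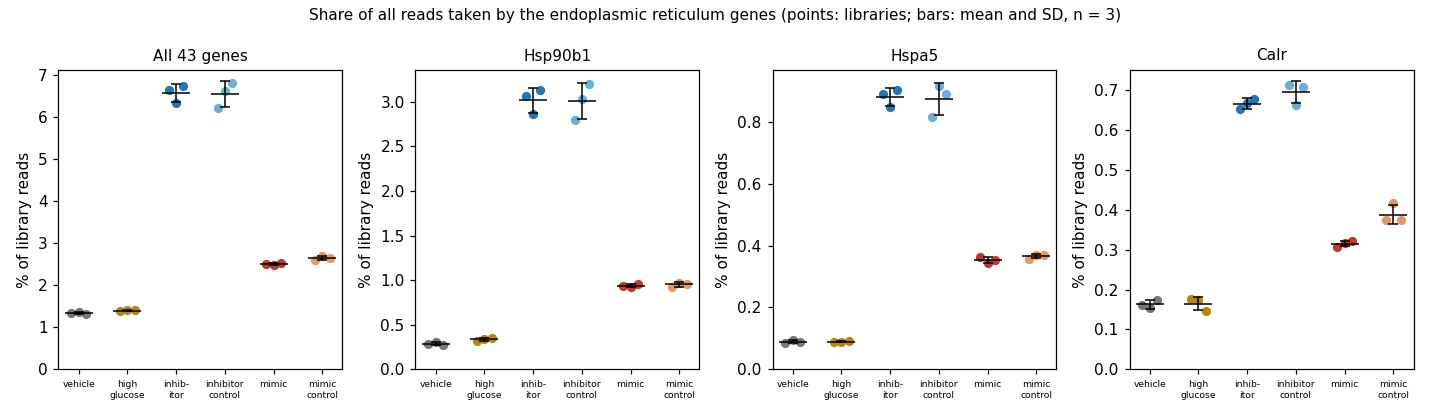
Share of library reads in percent (vertical axis, from 0) taken by all 43 genes, Hsp90b1, Hspa5 and Calr in the 6 groups (horizontal axis). Points are libraries, and bars are the mean and SD of 3 libraries. The inhibitor and inhibitor control libraries sit at 6.22% to 6.81% for the whole set, above the mimic pair at 2.48% to 2.71% and the untransfected cells at 1.33% to 1.41%.

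Promoters were searched for the elements through which this response is known to act. RefSeq windows from 250 bases before to 50 bases after the start of a gene (GRCm38.p6) were at hand for 35 of the 43 members. They were not at hand for Sil1, Manf, Derl1, Hspa13, Lman1, Sec61a1, Atf6 and Hyou1. The ER stress response element (ERSE) was searched on both strands as CCAAT, then any 9 bases, then CCACG. It was found in the windows of 10 members (28.6% of 35) and of 37 of all 27025 genes (0.137%). The 11 copies are shown, in the direction of the element, with the fixed bases in capitals and those between in lower case, because they are the sequence these chaperone, oxidase and degradation genes share.
Hspa5: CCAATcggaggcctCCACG
Hsp90b1, nearer copy: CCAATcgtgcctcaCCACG
Hsp90b1, farther copy: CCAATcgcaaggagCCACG
Calr: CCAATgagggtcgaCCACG
Canx: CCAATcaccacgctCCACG
Creld2: CCAATtgaggctcgCCACG
Dnajc3: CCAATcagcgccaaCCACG
Pdia6: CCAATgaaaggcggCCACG
Ero1b: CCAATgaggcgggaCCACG
Syvn1: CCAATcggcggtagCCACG
Derl3: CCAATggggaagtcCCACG

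The Hspa5 copy lies at chr2:34772025-34772043, from 65 to 47 bases before the start on the strand of the gene, and the Hsp90b1 copies lie at chr10:86705533-86705551 and chr10:86705638-86705656. A second element, ERSE-II (ATTGG, then 1 base, then CCACG), was found in Herpud1 and Dnajb11 and in 12 of the 27025 genes (0.0444%). The Herpud1 copy lies at chr8:94386377-94386387, 52 to 42 bases before the start, while the Dnajb11 copy lies 7 to 17 bases after it.
Herpud1: ATTGGgCCACG
Dnajb11: ATTGGcCCACG

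The XBP1 site TGACGTGG was found in Sec24d alone among the members (193 genes in all, 0.714%). The ATF4 site (TGATG, then 1 base, then AAT) was found in no member window and in 293 genes (1.08%). The pieces of the ERSE were common by themselves: CCAAT occurred in 80% of member windows and 41.1% of all genes, and CCACG in 80% and 35.5%. Both overlap the ERSE itself. With up to 1 mismatch in the fixed bases, a search added after the data were seen, the ERSE occurred in 16 of the 35 windows (45.7%) and in 1.72% of genes. The windows of Hspa5, with 1 exact ERSE, of Hsp90b1, with 1 copy on each strand, and of Sdf2l1, which had the largest change of the set in the inhibitor control and holds no exact ERSE or ERSE-II in this window, are printed whole for comparison (250 bases before to 50 after the start, capitals for the fixed bases, which read CGTGG and ATTGG where the copy is on the other strand; chr2:34771840-34772139, plus strand, chr10:86705395-86705694, minus strand, and chr16:17132334-17132633, minus strand).
Hspa5: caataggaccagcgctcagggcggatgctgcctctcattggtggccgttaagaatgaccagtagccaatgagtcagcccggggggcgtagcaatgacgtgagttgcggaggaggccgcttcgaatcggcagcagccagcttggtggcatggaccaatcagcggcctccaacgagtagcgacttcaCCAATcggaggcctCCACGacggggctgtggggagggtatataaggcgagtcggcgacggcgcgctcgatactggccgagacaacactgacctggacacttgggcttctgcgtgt
Hsp90b1: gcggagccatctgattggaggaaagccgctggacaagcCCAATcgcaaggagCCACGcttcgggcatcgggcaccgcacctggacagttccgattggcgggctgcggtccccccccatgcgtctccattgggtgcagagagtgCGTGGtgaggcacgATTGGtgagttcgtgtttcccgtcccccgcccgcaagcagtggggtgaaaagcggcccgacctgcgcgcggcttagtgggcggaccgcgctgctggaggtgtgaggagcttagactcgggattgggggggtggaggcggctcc
Sdf2l1: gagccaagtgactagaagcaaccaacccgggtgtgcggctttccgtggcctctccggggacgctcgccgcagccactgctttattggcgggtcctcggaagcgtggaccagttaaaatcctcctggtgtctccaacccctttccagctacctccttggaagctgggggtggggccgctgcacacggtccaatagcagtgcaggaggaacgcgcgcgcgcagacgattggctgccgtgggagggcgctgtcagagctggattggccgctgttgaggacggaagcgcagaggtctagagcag

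In untransfected cells no ER gene differed by 2-fold between high glucose and vehicle. Of the 42 members, 3 rose and 9 fell (28.6% called in all), a share close to that of all genes, where 12% of all 15074 genes rose and 12.2% fell (edgeR's quasi-likelihood test on all 18 libraries, Benjamini-Hochberg adjusted p below 0.05 over all genes, as throughout). The median log2 fold change of the members was -0.02, against 0.00 for all genes. Ern1, the IRE1 sensor, gave 40.4, 40.3 and 40.1 CPM with vehicle and 28.2, 30.6 and 29.0 CPM in high glucose. No vehicle library overlapped a high glucose library for Ern1, and its log2 fold change was -0.46 ± 0.043 (SE; adjusted p 1.99e-07), the largest of the set. Atf6b and Atf6 also fell, with log2 fold changes of -0.19 ± 0.053 and -0.14 ± 0.047 (adjusted p 0.0142 and 0.0394). Xbp1 did not pass the test (-0.07 ± 0.061, adjusted p 0.444).

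The risers in high glucose were Dnajc10, a reductase that opens wrong disulfide bonds, Hsp90b1, and Uggt1, the enzyme that marks unfolded glycoproteins for a further round of folding. Dnajc10 gave 124, 129 and 114 CPM with vehicle and 137, 151 and 164 CPM in high glucose (log2 fold change 0.30 ± 0.064, adjusted p 0.00172). Hsp90b1 gave 2809, 2887 and 2657 CPM and 3097, 3363 and 3431 CPM (0.24 ± 0.058, adjusted p 0.00429). High glucose libraries were above all vehicle libraries for both genes, while those of Uggt1 overlapped (0.16). Hspa5, the Hsp70 chaperone BiP that keeps the sensors inactive in resting cells, was at 869 ± 27.1 CPM (mean ± SD, n = 3) and 872 ± 5.44 CPM, with a log2 fold change of 0.01 ± 0.050 (adjusted p 0.962). The other members that fell were Wfs1, an ER protein of calcium balance (-0.23), Pdia5, a disulfide isomerase (-0.22), Sec61a1, the pore of the translocon (-0.20), Manf, a secreted ER stress protein (-0.18), Herpud1, a scaffold of ER-associated degradation (-0.16), and Dnajb11, a co-chaperone of BiP (-0.14). The falls of Atf6, Atf6b, Dnajb11, Manf and Herpud1 and the rise of Uggt1 each lost their call when 1 library or another was left out: 4 to 8 members fell in those 6 fits, 4 of them without vehicle replicate 1 and 5 without high glucose replicate 3, and 2 to 6 rose, 6 of them without high glucose replicate 1.

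The largest differences of the ER genes lay between the untransfected cells and the transfected negative controls, which carry no miR-200a-3p reagent. Transfection, reagent, culture and any batch come together in this comparison and cannot be told apart. In the mimic control 29 of 42 members were higher than in untransfected high glucose and 10 lower, where 39% of all genes were higher and 39.9% lower. In the inhibitor control 37 were higher and 4 lower, where 40.1% of all genes were higher and 39.3% lower. The median log2 fold change of the members was 0.59 in the mimic control and 1.03 in the inhibitor control, against 0.01 and 0.04 over all genes. At least 2-fold higher were 14 members in the mimic control and 21 in the inhibitor control, and at least 2-fold lower were 1 and 0. The share of all genes at 2-fold was not counted. In the mimic control the median absolute log2 fold change was 0.73 for the members and 0.79 for all genes. Both comparisons use the same 3 high glucose libraries, so each is given by its own values.

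Other measures also separated the pairs. Xist, the RNA of the inactive X chromosome, stood at 19.1 to 49.1 CPM in untransfected cells, 117 to 121 CPM in the mimic control, 247 to 263 CPM with the mimic and 1058 to 1231 CPM in the inhibitor pair. The ribosomal RNA gene Rn18s took 0.0841% to 0.181% of reads in the inhibitor and inhibitor control libraries, and 0.874% to 1.27% in all others. The part of these differences, and of the fibroblast and the plasma and acinar cell markers, in the results on ER genes was not tested.

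The chaperones of the Hsp70 and Hsp90 families and their partners had a median log2 fold change of 1.07 in the mimic control, where that of the 4 sensors and transcription factors was 1.26, and of 2.60 in the inhibitor control, where that of the sensors was 0.89. Of these 12 chaperone members 9 were higher and 3 lower in the mimic control, against 39% and 39.9% of all genes. In the inhibitor control 11 were higher and 1 lower, against 40.1% and 39.3% of all genes. Hspa5 gave 868, 878 and 871 CPM in untransfected high glucose, 3908, 4086 and 4055 CPM in the mimic control and 7857, 8816 and 8645 CPM in the inhibitor control. The 3 groups did not overlap, and the log2 fold changes against high glucose were 2.20 ± 0.052 in the mimic control (adjusted p 1.26e-18) and 3.27 ± 0.054 in the inhibitor control (adjusted p 3.47e-20). Sdf2l1, a partner of the co-chaperone Dnajb11, had the largest rise of the set in the inhibitor control, while Ern1 had it in the mimic control. It gave 8.65, 7.98 and 7.33 CPM in high glucose, 41.7, 46.9 and 41.3 CPM in the mimic control and 159.9, 160.2 and 168 CPM in the inhibitor control. That is a rise of 5.42-fold (log2 2.44 ± 0.079) in the mimic control and of 20.4-fold (log2 4.35 ± 0.079) in the inhibitor control, where it ranked 255 from the highest fold change among 15074 genes. Hsp90b1 gave 10119, 10746 and 10501 CPM in the mimic control and 26971, 29174 and 31159.8 CPM in the inhibitor control, against 3097, 3363 and 3431 CPM in high glucose. Its log2 fold changes were 1.67 ± 0.060 and 3.14 ± 0.063.

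The partners of BiP moved unequally. Dnajc3, a co-chaperone that also restrains PERK, gave 40.1, 41.5 and 45.0 CPM in high glucose, 74.8, 68.0 and 69.0 CPM in the mimic control and 259.7, 294 and 292 CPM in the inhibitor control, with the larger rise in the inhibitor control (log2 0.74 and 2.74). Creld2, a secreted ER stress protein, rose by 1.08 and 3.03. Manf rose by 1.91 and 2.96, Hyou1, the exchange factor and holdase GRP170, by 1.26 and 2.46, and Dnajb9, a co-chaperone that represses IRE1, by 1.07 and 2.20. Dnajb11 rose by 0.45 and 1.14. Sil1, the other exchange factor of BiP, went the opposite way, from 93.1 ± 5.60 CPM in high glucose to 49.0 ± 2.89 CPM in the inhibitor control (log2 -0.92), with a smaller fall in the mimic control (-0.27). Dnajc10 gave 76.3, 77.6 and 78.5 CPM in the mimic control, below all high glucose libraries (-0.96 ± 0.065), and 174, 192 and 198 CPM in the inhibitor control, above them (0.32 ± 0.064). Hspa13, a divergent Hsp70 of the ER membrane, was likewise lower in the mimic control (-0.63) and higher in the inhibitor control (0.58).

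**Figure D2:**
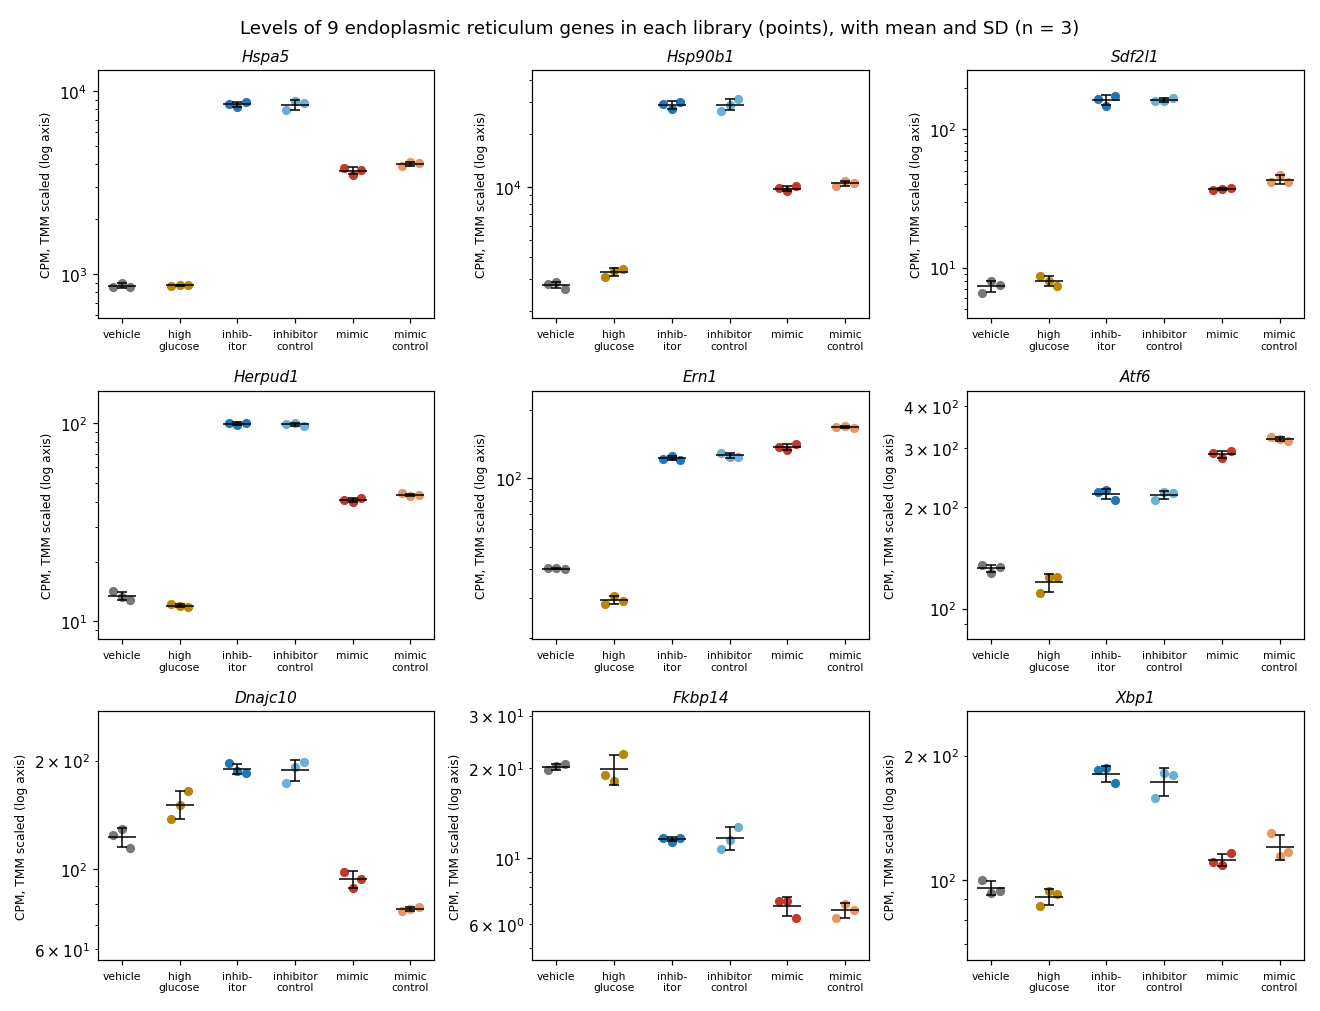
TMM-scaled CPM on log axes (vertical, each panel with its own range) of 9 ER genes in the 6 groups (horizontal). Points are libraries, and bars are the mean and SD of 3 libraries. Hspa5, Hsp90b1, Sdf2l1 and Herpud1 are highest in the inhibitor pair, Ern1 and Atf6 are highest in the mimic control, and Dnajc10 is lowest there.

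The sensors followed another order. Ern1 was highest in the mimic control with 167, 170.4 and 167 CPM, followed by the inhibitor control with 129, 125 and 124 CPM, and both lay above the 28.2, 30.6 and 29.0 CPM of high glucose (log2 2.52 ± 0.043 and 2.10 ± 0.043). Atf6 gave 111, 124 and 124 CPM in high glucose, 325, 319 and 315 CPM in the mimic control and 210.3, 223 and 220.04 CPM in the inhibitor control (1.42 and 0.86). Its paralog Atf6b gave 17.9, 17.5 and 17.2, then 39.4, 36.5 and 37.6 and 21.1, 21.2 and 20.8 CPM (1.11 and 0.26). Each of these 3 sensor genes was thus higher in the mimic control than in the inhibitor control, whose libraries did not overlap. Xbp1 was the exception among the 4, with 86.8, 94.3 and 92.5 CPM in high glucose, 130.1, 114 and 117 CPM in the mimic control and 158, 182 and 179 CPM in the inhibitor control (0.40 and 0.92). Spliced and unspliced Xbp1 are summed in these gene counts, and splicing was not analysed here.

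Among the lectin chaperones, Calr (calreticulin) gave 1724, 1709 and 1396 CPM in high glucose, 4074, 4593 and 4089 CPM in the mimic control and 6870.04, 6376 and 6875 CPM in the inhibitor control, with log2 fold changes of 1.40 ± 0.074 and 2.06 ± 0.076. Its membrane-bound relative Canx (calnexin) rose by 0.40 and 0.95, and Uggt1 by 0.30 and 0.20. Ganab, the catalytic subunit of the glucosidase that trims glycans for these lectins, was higher in the mimic control (0.14, adjusted p 0.00557) and lower in the inhibitor control (-0.45, adjusted p 8.38e-09). Its rise in the mimic control turned to -0.02 in limma's fit of log2(FPKM + 1) and was not called there.

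In the mimic control, 4 of the 8 disulfide and proline isomerases and their partners were higher and 3 lower, against 39% and 39.9% of all genes. In the inhibitor control 7 were higher and 1 lower, against 40.1% and 39.3% of all genes. Pdia4, a disulfide isomerase of the stress response, went from 459 ± 70.3 CPM in high glucose to 690.3 ± 19.9 CPM in the mimic control and 2760.00 ± 75.1 CPM in the inhibitor control (log2 0.59 and 2.59). Pdia3, the isomerase that works with the lectins, rose by 0.59 and 1.88, and Pdia6 by 0.70 and 1.85. P4hb, the classical disulfide isomerase, did not pass the test in the mimic control (0.05, adjusted p 0.254) and rose in the inhibitor control (0.89). Pdia5 differed from these in rising at least as far in the mimic control (1.81) as in the inhibitor control (1.63). The oxidase Ero1b and the retention factor Erp44 were lower in the mimic control (-0.67 and -0.36) and higher in the inhibitor control (0.87 and 0.20). Fkbp14, a proline isomerase known for collagen folding, had the largest fall of the set in the mimic control, from 19.8 ± 2.26 CPM in high glucose to 6.68 ± 0.364 CPM in the mimic control and 11.6 ± 1.04 CPM in the inhibitor control (-1.57 ± 0.084 and -0.77 ± 0.080).

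In ER-associated degradation, 4 of 8 tested members were higher and 2 lower in the mimic control, against 39% and 39.9% of all genes. In the inhibitor control 7 were higher and 1 lower, against 40.1% and 39.3% of all genes. Herpud1 gave 12.3, 11.9 and 11.8 CPM in high glucose, 44.1, 42.9 and 43.2 CPM in the mimic control and 98.8, 99.9 and 96.1 CPM in the inhibitor control (log2 1.86 ± 0.046 and 3.03 ± 0.045). The spread within each group was small beside these steps. Selenos, a selenoprotein of the degradation complex, rose by 0.85 and 1.92, and Derl1, a channel component, by 0.96 and 0.72. The ubiquitin ligase Syvn1 was not called in the mimic control (-0.09) and rose in the inhibitor control (0.90), and its adaptor Sel1l rose by 0.14 and 1.44. The small rise of Sel1l in the mimic control was lost without high glucose replicate 1 and without mimic control replicate 1, and it turned to -0.03 in both of limma's FPKM fits. The deposited FPKM of Sel1l averaged 29.1 in high glucose and 28.5 in the mimic control. Edem1, which hands trimmed glycoproteins to degradation, gave 35.9, 37.5 and 43.6 CPM in high glucose, 25.3, 23.1 and 22.7 CPM in the mimic control and 76.7, 89.8 and 81.1 CPM in the inhibitor control, lower in the one and higher in the other (-0.72 ± 0.079 and 1.08 ± 0.075). Os9, a lectin of the same pathway, was lower in both (-0.47 and -0.76), and Derl2 was not called in the mimic control (0.06) and rose in the inhibitor control (0.49).

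All 3 translocation genes were higher in both controls, where 39% (mimic control) and 40.1% (inhibitor control) of all genes were. Sec61a1 rose by 0.56 and 0.71, Sec61b, another translocon subunit, by 0.84 and 0.99, and Ssr1, of the complex beside the translocon, by 0.77 and 1.14. The export genes were split. The cargo receptor Lman1 was lower in the mimic control (-0.55) and not called in the inhibitor control (0.09, adjusted p 0.102), whereas the COPII coat subunit Sec24d was lower in the mimic control (-0.40) and higher in the inhibitor control (0.38). Wfs1 rose in both (1.32 and 1.09).

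**Figure D3:**
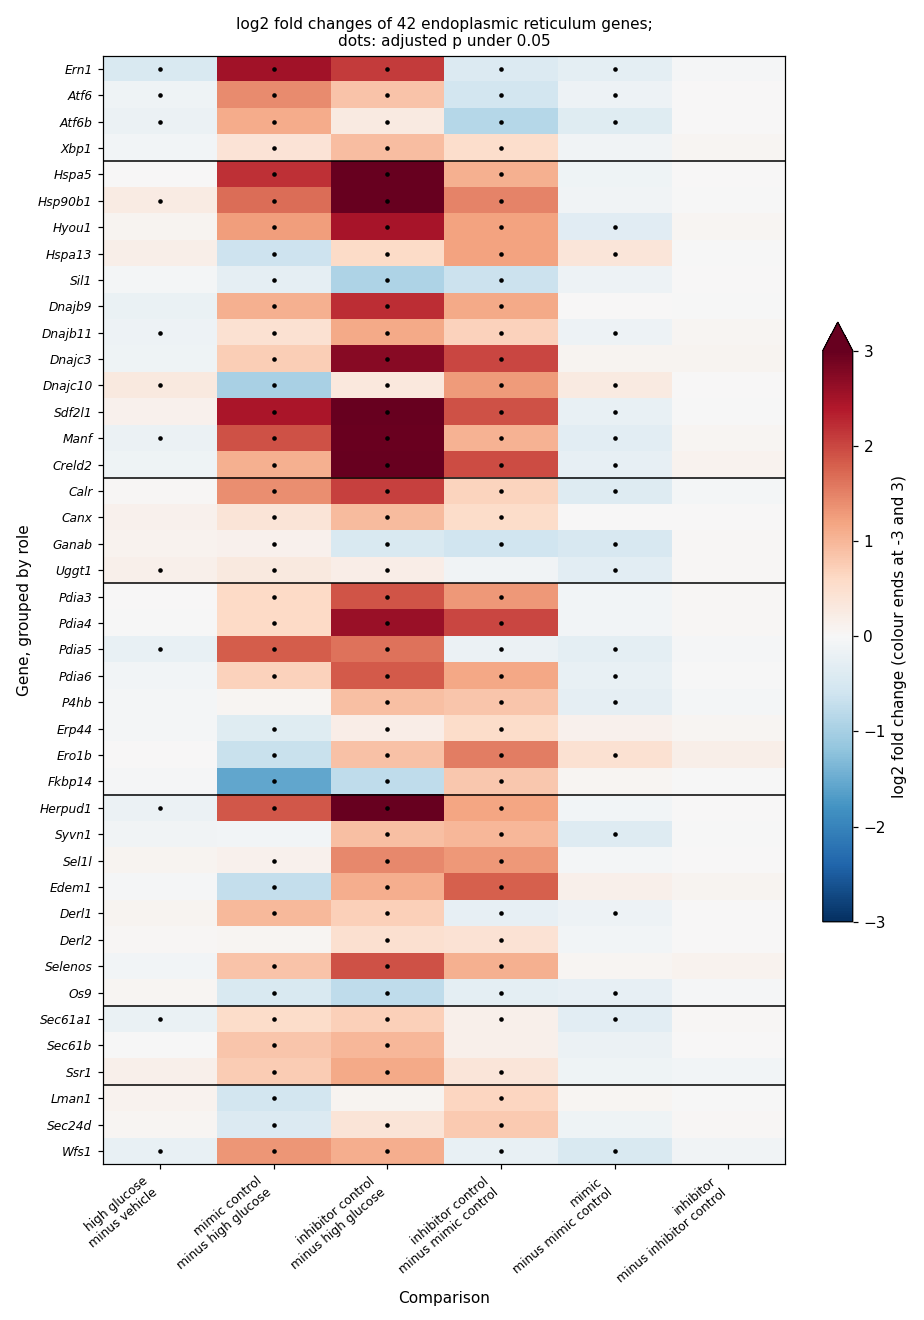
Log2 fold changes (colour, from -3 to 3, with values beyond 3 shown in the end colour) of the 42 tested ER genes (rows, grouped by role) in 6 comparisons (columns). Dots mark an adjusted p under 0.05. The column of the inhibitor control against high glucose holds the strongest rises, up to 4.35 for Sdf2l1, and the column of the inhibitor against its control holds no dot.

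Set directly against each other, the 2 negative controls differed in 40 of 42 members. In the inhibitor control 31 were higher and 9 lower than in the mimic control, where 38.5% of all genes were higher and 35.7% lower. The median log2 fold change was 0.79 for the members and 0.04 for all genes, and 18 members were at least 2-fold higher while none was 2-fold lower. The share of all genes at 2-fold was not counted here either. Both groups are labelled as negative controls in high glucose, and the labels do not say how the 2 control reagents differ.

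The largest differences were those of Dnajc3 (2.00 ± 0.061), Pdia4 (2.00 ± 0.080), Creld2 (1.95 ± 0.077), Sdf2l1 (1.91 ± 0.067) and Edem1 (1.80 ± 0.078). Ero1b (1.54), Hsp90b1 (1.48), Pdia3 (1.29) and Dnajc10 (1.28) also stood out. Hspa5 differed by 1.07 ± 0.050, Herpud1 by 1.18 ± 0.041, Dnajb9 by 1.13 ± 0.078 and Xbp1 by 0.52 ± 0.060. Lower in the inhibitor control were Atf6b (-0.85 ± 0.052), Sil1 (-0.65), Ganab (-0.59), Atf6 (-0.55), Ern1 (-0.42), Os9 (-0.29), Derl1 (-0.25), Wfs1 (-0.23) and Pdia5 (-0.18). Uggt1 and Sec61b were not called (-0.10 and 0.15). The differences of Pdia5 and Wfs1 were not called with upper quartile scaling, and that of Sec61a1 (0.15) was lost when mimic control replicate 2 or inhibitor control replicate 2 or 3 was left out.

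Members with and without a promoter element overlapped widely. In the inhibitor control against high glucose, the 11 tested members with an exact ERSE or ERSE-II had a median log2 fold change of 2.06 (0.87 to 3.27), and the 23 members whose window holds neither had 0.99 (-0.77 to 4.35). In the mimic control the medians were 0.74 and 0.40. Sdf2l1 and Pdia4, without an exact element in these windows, were among the members that rose most, while Ero1b, with one, fell in the mimic control. An exact ERSE was also present in 27 genes outside the set, of which 11 were tested, and their log2 fold changes in the inhibitor control ran from -3.52 to 4.11.

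The PERK branch, which is not among the 43 genes, showed another order of the groups. Of 16 genes listed for PERK, ATF4 and CHOP, 12 were higher and 3 lower in the mimic control, and 12 were higher and 3 lower in the inhibitor control against high glucose. Of all genes, 39% were higher and 39.9% lower in the mimic control, and 40.1% and 39.3% in the inhibitor control. Ddit3, which encodes the pro-apoptotic factor CHOP, gave 89.7, 80.2 and 82.0 CPM in high glucose, 1546, 1553 and 1539.9 CPM in the mimic control and 1489, 1412 and 1433 CPM in the inhibitor control. Its rise was 4.20 ± 0.067 and 4.10 ± 0.067 on the log2 scale. The 2 controls differed for Ddit3 by -0.10 ± 0.058 (adjusted p 0.135), whereas Hspa5 differed by 1.07. Atf4, the factor upstream, gave 197, 185 and 193 CPM, 1301, 1258 and 1280.3 CPM and 1041, 1075 and 1073 CPM in the same 3 groups and was lower in the inhibitor control than in the mimic control (-0.27 ± 0.043, adjusted p 1.08e-05). Between the controls 4 genes of the branch were higher and 11 lower in the inhibitor control, led by Ppp1r15a, which reverses the translation block (-1.51), Atf3 (-1.35) and Nupr1 (-1.03) downwards and by Eif2ak3, the gene of PERK itself, upwards (1.13). Of all genes, 38.5% were higher and 35.7% lower in the inhibitor control than in the mimic control. The Hsp70 and Hsp90 partners of the ER set, with 11 of 12 higher in the inhibitor control, and the PERK branch, with 11 of 16 lower, thus lay on opposite sides of this comparison.

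Other genes of the secretory pathway were taken from lists beside the set, each with counts of genes higher and lower in the mimic control and then in the inhibitor control against high glucose. Of all genes, 39% were higher and 39.9% lower, then 40.1% higher and 39.3% lower. Of 18 other folding and redox enzymes, 7 were higher and 9 lower, then 10 higher and 7 lower, led by Fkbp11 (1.70 and 2.18) and Ero1a, the main oxidase of the ER (1.37 and 1.87). Of 22 other degradation genes, 9 were higher and 9 lower, then 6 higher and 12 lower. Of 31 genes for signal peptides, the translocon and N-glycosylation, 18 were higher and 8 lower, then 19 higher and 7 lower. Of 24 genes of the COPII coat and ER export, 8 were higher and 13 lower, then 12 higher and 8 lower. Of 14 tested factors that process or accompany the sensors, 5 were higher and 3 lower, then 3 higher and 8 lower. The medians of these 5 lists did not exceed 0.29 in either comparison. That of the 43-gene set was 0.59 and 1.03, that of the PERK branch 1.45 and 1.11, and that of 11 mitochondrial chaperones and proteases 1.29 and 0.43, so a higher median was not particular to the set. With the mimic against its control, 4 of the 18 folding enzymes were higher and 6 lower, 3 and 9 of the 22 degradation genes, 7 and 11 of the 31 translocation and glycosylation genes, 1 and 10 of the 24 export genes, 2 and 7 of the 14 sensor-related factors, and 1 and 6 of the 16 PERK branch genes. Of all genes, 15.8% were higher and 18% lower with the mimic. With the inhibitor no gene of these lists was called.

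With the miR-200a-3p mimic more ER genes fell than rose against its own control, and every change was under 2-fold. Of 42 members 19 fell and 3 rose, where 18% of all genes fell and 15.8% rose. The median log2 fold change of the members was -0.14, against 0.00 for all genes. Without mimic replicate 2, 16 members fell and 3 rose. The share of rises among all called genes depended on the scaling, at 46.7% here, 41.1% with DESeq2's size factors, 38.9% in DESeq2's own test, 55.1% with upper quartile scaling and 61.3% and 63.5% in limma's fits of log2(FPKM + 1) and log2(FPKM + 0.1), while 14 to 22 members fell and 3 or 4 rose under those settings.

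Ganab fell the most, from 78.0, 71.8 and 73.9 CPM in the mimic control to 54.4, 53.3 and 53.7 CPM with the mimic (-0.47 ± 0.043, adjusted p 7.93e-07). Wfs1 gave 172, 172 and 167 CPM and 126, 119 and 127 CPM (-0.46 ± 0.054, adjusted p 8.60e-06), and Calr 4074, 4593 and 4089 CPM and 3221, 3201 and 3399 CPM (-0.38 ± 0.073, adjusted p 0.000714). For all 3 genes the libraries of the groups did not overlap. Among the sensors Atf6b (-0.37), Ern1 (-0.30) and Atf6 (-0.15) fell, while Xbp1 was not called (-0.11 ± 0.061). Syvn1 (-0.38), Hyou1 (-0.35), Manf (-0.32), Uggt1 (-0.32), Sec61a1 (-0.31) and Pdia5 (-0.29) also fell. P4hb, Os9, Creld2, Sdf2l1, Pdia6, Derl1 and Dnajb11 fell too, with log2 fold changes from -0.26 to -0.14. The falls of Atf6, Dnajb11, Creld2 and Derl1 were not called without mimic replicate 2.

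The most abundant chaperones other than Calr were not called. Hspa5 gave 3908, 4086 and 4055 CPM in the mimic control and 3818, 3499 and 3715 CPM with the mimic (-0.13 ± 0.050, adjusted p 0.0556), and Hsp90b1 differed by -0.10 ± 0.058 (adjusted p 0.216). The result for Hspa5 depended on the setting: it was called with DESeq2's size factors, in DESeq2's own test and without mimic replicate 1. Herpud1 differed by -0.08 ± 0.042 and Dnajb9 by 0.01 ± 0.080, neither of them called. The 3 members that rose were Ero1b, from 2.13, 2.35 and 2.72 to 3.59, 3.59 and 2.66 CPM (0.45 ± 0.14), Hspa13, from 15.9, 16.8 and 16.8 to 21.4, 20.8 and 21.1 CPM (0.36 ± 0.074), and Dnajc10, from 76.3, 77.6 and 78.5 to 98.3, 88.3 and 94.0 CPM (0.27 ± 0.065). The rise of Ero1b was not called without mimic replicate 2, and its libraries overlapped between the groups.

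The members were also read against sites for the miR-200a-3p seed. A site complementary to the seed was sought in 3′ UTRs annotated in GENCODE M39 (GRCm39), as 8 matched bases (8mer) or 7 (7mer). Only the 3′ UTR of the transcript marked as canonical for each gene was searched, so sites in other 3′ UTRs of a gene were missed. At least 1 site was present in 10 of the 43 members (23.3%) and in 25.2% of 17442 genes. The 2 members with an 8mer are Herpud1 and Ssr1, shown with 8 bases on each side, sense strand, and the site in capitals (Herpud1, exon 8 of 8, chr8:95122681-95122688; Ssr1, exon 8 of 8, chr13:38155538-38155545, minus strand).
Herpud1: ggagtctgCAGTGTTAgaggagac
Ssr1: acttagaaCAGTGTTAaatttcag

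With the mimic, Herpud1 differed by -0.08 ± 0.042 (adjusted p 0.128) and Ssr1 by -0.14 ± 0.067 (adjusted p 0.125). Weaker 7mer sites were present in Atf6, Hspa13, Dnajb9, Dnajc3, Canx, Ero1b, Derl1 and Edem1. Of the 10 members with a site 2 fell and 2 rose with the mimic, with a median of 0.01. Of the 32 tested members without a site 17 fell and 1 rose, with a median of -0.21. Among all tested genes 18% fell and 15.8% rose. The shares over all genes with a site and over all without one were not counted. Atf6 and Derl1 were the members with a site that fell, and Hspa13 and Ero1b those that rose. Without mimic replicate 2, Atf6, Derl1 and Ero1b were not called. Among members without a site, Dnajb11 and Creld2 lost their call there, and Erp44 and Sec61b gained one. A matched sequence is not evidence that the microRNA binds there.

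The miR-200a-3p inhibitor changed no ER gene against its own control by the same test. Of 42 members 0 were called in either direction, as were 0% of all genes higher and 0% lower, and the lowest adjusted p of a member was 1. At an unadjusted p below 0.05 there were 0 members, and 447 genes of all 15074, while DESeq2 also called 0 genes and gave 281 at an unadjusted p below 0.05. The log2 fold changes of the members ran from -0.10 (Wfs1) to 0.18 (Ero1b), with standard errors up to 0.119. Hspa5 gave 7857, 8816 and 8645 CPM in the inhibitor control and 8526, 8161 and 8712 CPM with the inhibitor (0.00 ± 0.050), and Herpud1 gave 98.8, 99.9 and 96.1 CPM and 99.9, 97.5 and 99.8 CPM (0.01 ± 0.039). The high levels of these chaperones were measured in both groups of the inhibitor pair. Ern1 differed by -0.04 ± 0.039 and Sdf2l1 by -0.01 ± 0.063.

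The effects of mimic and inhibitor were compared in 1 term, the mimic effect minus the inhibitor effect. This difference was negative for 13 of 42 members and positive for 1, where it was negative for 8.59% of all genes and positive for 4.63%. With 1 library left out, the difference was negative for 9 to 15 members. Without mimic replicate 2, Dnajb11, Creld2, P4hb and Syvn1 were not called and Dnajc10 was. Ganab had the largest difference (-0.50 ± 0.061, adjusted p 0.000133). Hspa13 was the positive one (0.36 ± 0.10, adjusted p 0.0259), and it lost its call in the fits without inhibitor replicate 1 or 2, inhibitor control replicate 2 or 3, or mimic control replicate 1. Hspa5, Hsp90b1 and Herpud1 did not pass this test (-0.13 ± 0.070, -0.09 ± 0.083 and -0.10 ± 0.057).

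**Figure D4:**
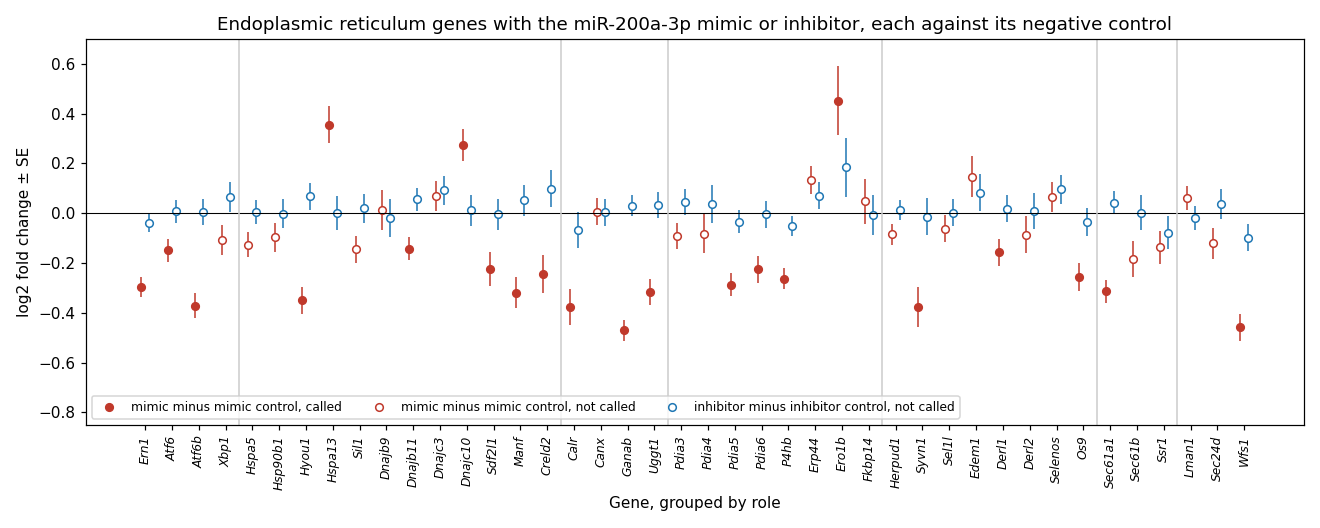
Log2 fold change ± SE (vertical axis) of the 42 tested ER genes (horizontal axis, grouped by role) with the miR-200a-3p mimic (red) and the inhibitor (blue), each against its own negative control, 3 libraries a group. Filled points are called, and none of the blue points is. Ganab and Wfs1 lie lowest with the mimic at -0.47 and -0.46, and Ero1b highest at 0.45.

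Over the 6 groups the level of a member changed by 1.37-fold (Uggt1) to 22.2-fold (Sdf2l1) between its lowest and its highest group mean, with a median of 2.62-fold. For 31 members the ratio was above 2 and for 13 above 4. Neither these ratios nor the groups of highest and lowest mean given next were counted over all genes. Of all genes, 40.1% were called higher and 39.3% lower in the inhibitor control than in untransfected high glucose. The highest mean lay in the inhibitor group for 21 members, in the inhibitor control for 10 and in the mimic control for 8. Os9 was highest in high glucose, and Sil1 and Fkbp14 were highest with vehicle. The lowest mean lay in high glucose for 17 members, with vehicle for 12, in the mimic control for 7 and with the mimic for 3. Neighbouring groups in these orders often did not differ: for Hspa5 the means were 8466 ± 280.2 CPM with the inhibitor, 8439 ± 512 CPM in its control, 4016 ± 95.3 CPM in the mimic control, 3677 ± 163 CPM with the mimic, 872 ± 5.44 CPM in high glucose and 869 ± 27.1 CPM with vehicle. The 3 steps within pairs in this order were not called and the 2 steps between pairs were larger than any spread within a group.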

How the data were processed

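RNA of 18 HL-1 libraries was sequenced as stranded paired-end libraries, per the labels' protocols. Per the submitters' processing notes, reads were trimmed with FASTX-Toolkit 0.0.13 and aligned with HISAT2 to GRCm39. The counting program, annotation and strand setting are not given in the sources used here, so overlapping genes cannot be told apart. The authors deposited raw read counts for 29112 genes and FPKM for 28907.

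The counts were fitted in R 4.3.3 by edgeR 4.0.16. Its filterByExpr (minimum count 10, minimum total 15) left 15074 genes. TMM scaling and a quasi-likelihood fit with 1 term per group over all 18 libraries followed. Genes with a Benjamini-Hochberg adjusted p below 0.05 over all tested genes were called. CPM are TMM-scaled, except the marker sums and the values of single marker genes, which are not. Those of Lyz2 are TMM-scaled. Alternatives were DESeq2 1.42.0, other scalings, no filter, limma 3.58.1 on log2(FPKM + 1) and log2(FPKM + 0.1), only the compared groups, a replicate block, and each library left out.

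The members and lists were chosen with earlier results of these data known. Always named were Hspa5, Hsp90b1, Calr, Dnajb9, Sdf2l1, Herpud1, Xbp1, Ern1, Atf6 and Atf6b, then, in each direction of a comparison, at most 10 called members by size of change, and members with a promoter element or seed site. Further genes named from the lists were up to 4 called ones.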

Additional observations from a re-analysis of the deposited data

Results flagged for a closer look

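The effect of the miR-200a-3p mimic and that of the inhibitor, each against its own negative control, differed by the interaction term for 14 ER genes (edgeR's quasi-likelihood test, adjusted over all genes). Over all genes the term was negative for 8.59% and positive for 4.63%. Values are the mimic effect minus the inhibitor effect on the log2 scale. Among the sensors the difference was -0.26 for Ern1 (adjusted p 0.00578) and -0.38 for Atf6b (0.00307). Among chaperones and their partners it was -0.42 for Hyou1 (0.00202), -0.37 for Manf (0.00975), -0.34 for Creld2 (0.0385) and -0.20 for Dnajb11 (0.0487), and 0.36 for Hspa13 (0.0259). In the glycan cycle it was -0.50 for Ganab (0.000133) and -0.35 for Uggt1 (0.00505). It was -0.25 for Pdia5 (0.0151), -0.21 for P4hb (0.0208), -0.36 for Syvn1 (0.0355), -0.36 for Sec61a1 (0.00236) and -0.36 for Wfs1 (0.00555). Each of these 14 genes was also called with the mimic against its own control, and no member was called with the inhibitor alone. Of 12 fits with 1 library left out and 8 other alternatives, Dnajb11 lost its call in 15 and Creld2 in 13. Syvn1 lost it in 8, P4hb in 6 and Hspa13 in 5. The fit without mimic replicate 2 was among these for Dnajb11, Creld2, Syvn1 and P4hb. Dnajc10 gained a call in 8, Pdia6 in 6, Calr in 5, and Atf6, Derl1 and Os9 in 2 each.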

How the results depend on the processing

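Of 4368 log2 fold changes of members recomputed under the alternatives, 4179 kept their direction and side of the threshold, 124 lost their call, 61 gained one, and 4 turned sign. The 4 came from limma's fits of log2(FPKM + 1) and log2(FPKM + 0.1). There the mimic control minus high glucose: log2 fold change of Ganab was -0.0245 and -0.0262, and the mimic control minus high glucose: log2 fold change of Sel1l was -0.0257 and -0.0265, none of them called. In those fits the median of all genes was shifted by -0.151 and -0.164; the cause was not tested. In high glucose against vehicle the 9 falls became 5 with only the compared groups fitted, and 4 to 8 with 1 library left out, while the 3 rises became 2 to 6. For the mimic effect minus the inhibitor effect, the 1 positive member became 2 with upper quartile scaling, 2 in DESeq2's test, 2 with no filter, 2 and 2 in limma's fits and 2 with only the compared groups, and 0 to 2 with 1 library left out. Deviations from the group means of same-numbered libraries correlated at -0.452 to 0.226. In the inhibitor control against high glucose, and against the mimic control, 4 of 6 libraries correlated best with their own number. In the mimic against its control 3 of 6 did, and 0 of 6 in each other comparison. With 3 libraries a group these values cannot decide whether replicate numbers pair the libraries. With the replicate block 3 members rose and 7 fell in high glucose, and the difference of effects was negative for 12, while the counts of the other comparisons were unchanged.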

Other observations

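Chaperones outside the ER were listed separately. Of all genes, 39% were higher and 39.9% lower in the mimic control than in untransfected high glucose, and 40.1% and 39.3% in the inhibitor control. Between the controls, 38.5% were higher and 35.7% lower in the inhibitor control. The shares were 15.8% and 18% with the mimic, and 12% and 12.2% in high glucose against vehicle. Of 20 genes of the cytosolic heat shock response, 10 were higher and 8 lower in the mimic control than in untransfected high glucose, and 4 were higher and 13 lower in the inhibitor control. Cryab, a small heat shock protein of muscle, had log2 fold changes of -2.20 and -3.06, and Hspa1b, the inducible Hsp70, of -1.55 and -2.09. Between the controls 1 of the 20 was higher and 16 lower in the inhibitor control. With the mimic 3 were higher and 7 lower, and in high glucose against vehicle 8 were higher and 1 lower. Of 11 mitochondrial chaperones and proteases, 9 were higher and 2 lower in the mimic control, and 7 were higher and 0 lower in the inhibitor control. Hspa9, the mitochondrial Hsp70, rose by 2.23 and 1.93, and the protease Lonp1 by 2.15 and 1.08. Between the controls 2 of the 11 were higher and 9 lower in the inhibitor control. No gene of either list was called with the inhibitor.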
